A study of Arabidopsis thaliana with 27 samples.

Results

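The comparison described here set the apical part of the globular Arabidopsis thaliana embryo against its basal part. Its members are the 6 arrays titled as globular apical (3 arrays) and globular basal (3 arrays), out of 27 arrays in the series. Every array carried total RNA of embryo tissue cut out by laser capture microdissection, a method that collects chosen cells from a section under a microscope, hybridised to an Affymetrix ATH1 array. All plants were Col-0, the standard laboratory accession, grown on compost with 16 h of light, and no mutant, transgene or treatment was involved. The labels describe globular apical replicate 1 differently from the other arrays, with 50% humidity against about 30%, a temperature of 23 °C and a cold period of 72 h at 4 °C; the part of these conditions in the results was not tested. The heart cotyledon, heart root, torpedo apical and torpedo basal captures of the same series, with 3 arrays each, served for comparison with later stages. The labels do not say how many embryos or plants went into an array, nor where the line between apical and basal tissue was drawn, so arrays were the replicates and p-values measure the spread between arrays.

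The globular stage comes before cotyledons are visible. In Arabidopsis the apical daughter of the zygote gives rise to most of the embryo, and the basal daughter gives rise to the suspensor and to the hypophysis, the founder of part of the root meristem. Upper cells of the globular embryo go on to the shoot meristem and cotyledons, while lower cells go on to the hypocotyl and root, and auxin transport towards the lower pole is known to be part of this patterning. Captured regions hold many cells, so a lower signal can come from fewer cells of a type or from less RNA per cell, and these cannot be told apart.

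The deposited values are probe set signals made with MAS5 on a linear scale, where the trimmed mean of an array is about 100. The 3 apical and 3 basal arrays did not separate from each other over all probe sets. Pearson's r of log2(signal + 10) was 0.578 to 0.760 (median 0.678) for the 6 pairs within a group and 0.568 to 0.769 (median 0.666) for the 9 pairs between groups. The most similar pair was apical replicate 1 with basal replicate 2, and basal replicate 3 stood furthest from the others, with a mean r of 0.582 to its own group. Signals of 18 spiked hybridisation control probe sets averaged (geometric mean) 879.1, 1138.6 and 8387.8 on the apical arrays and 5500.1, 2285.6 and 1845.5 on the basal arrays, so apical replicate 3 was the highest. The log2 ratio of the 3′ to the 5′ GAPDH probe set, a sign of RNA or labelling quality, was 4.91, 4.97 and 5.63 on the apical arrays and 6.91, 5.30 and 6.25 on the basal arrays. The same ratio for actin was 0.51, -0.95 and -0.93 on the apical arrays and -1.14, 0.34 and -1.75 on the basal arrays. The GAPDH groups overlapped at apical replicate 3, and the actin ratio did not follow the GAPDH ratio. The part of these array differences in the results was not tested.

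**Figure D1:**
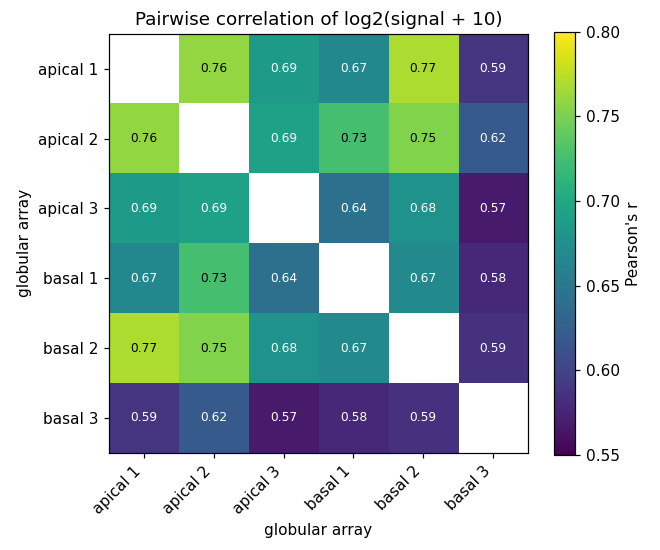
Pearson's r of log2(signal + 10) over all probe sets for each pair of the 6 globular arrays. Pairs within a group (0.578 to 0.760) span a similar range to pairs between groups (0.568 to 0.769), and basal replicate 3 has the lowest values.

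The tissue labels could be checked against markers only in part. Of 11 embryo proper markers and 8 suspensor markers, none is named in the probe set table used here. Endosperm, the nutritive tissue around the embryo, had 7 of 28 listed markers measured, and their summed signal was 379.9 to 450.4 on the apical arrays and 580.0 to 882.8 on the basal arrays, so the groups did not overlap. AGL80, a MADS-box factor known from the central cell and early endosperm, had 24.4, 96.4 and 25.0 in apical captures and 136.2, 116.6 and 103.1 in basal captures. MPC, an endosperm gene expressed from the maternal allele, had 72.3, 80.6 and 86.7 in apical captures and 161.3, 384.8 and 108.3 in basal captures. All 3 basal values of each gene exceeded all 3 apical values. The list was not of 1 direction: 2 of the 7 were higher in apical captures, and AT2G44240 was so without overlap, at 23.8, 12.2 and 19.8 in apical and 11.8, 9.8 and 6.7 in basal captures. AGL62, which keeps the endosperm from forming cell walls early, had 36.0, 33.6 and 40.9 in apical against 50.1, 27.8 and 88.8 in basal captures, with overlapping groups. The seed coat list had 3 of 31 genes measured, with summed signals of 229.5 to 544.5 in apical and 137.5 to 254.3 in basal captures. BAN, an enzyme of proanthocyanidin synthesis, had 444.6, 168.1 and 13.7 in apical and 10.3, 91.8 and 8.5 in basal captures, and DFR, an earlier enzyme of that route, had 71.5, 167.4 and 129.6 in apical and 119.4, 107.1 and 107.5 in basal captures. The third entry, CHI, carries the locus AT2G43570, a chitinase and not the flavonoid enzyme the list was written for, and it had 28.4, 45.7 and 86.2 in apical and 124.1, 55.4 and 21.5 in basal captures. Silique and leaf markers RCA (Rubisco activase) and ALC (a fruit valve margin factor), 2 of 20 listed, summed to 172.0 to 501.3 in apical and 223.8 to 551.6 in basal captures, and the pollen histone MGH3, 1 of 12, had 25.0, 14.7 and 10.3 in apical against 10.6, 5.2 and 12.1 in basal captures. RCA had 116.4, 59.1 and 313.2 in apical against 83.8, 334.8 and 268.1 in basal captures, and ALC had 80.1, 112.9 and 188.1 in apical against 140.0, 58.6 and 283.5 in basal captures. None of the 13 markers was at 0 on any array, but no detection calls were used, so this does not show that each was present. The lowest marker value was 5.2, where the median signal of the 6 arrays ran from 50.9 to 65.1. The part of other tissues in the differences below was not tested.

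Among 22746 probe sets tested, 1 differed between the apical and basal parts at an adjusted p under 0.05 in limma's moderated test (0.0044% higher in apical, 0.0% lower). Probe set 263739_at had 1682.3, 1525.2 and 2064.3 in the apical captures and 9.5, 16.9 and 41.0 in the basal captures. The groups lay far apart, and the fitted log2 difference was 5.87 with a standard error of 0.51 (limma, adjusted p = 0.0312, 3 arrays a group, higher in 3 of 3 apical arrays). The table used here gives this probe set no gene, so neither a gene name nor a role is stated, and it is named after its values were seen. The call ended under several other settings, with adjusted p values of 0.0636 with a pseudocount of 1, 0.0986 without an intensity trend and 0.534 in a fit of 25 arrays. It ended as well without apical replicate 1 (0.373), 2 (0.157) or 3 (0.437) and without basal replicate 1 (0.153) or 2 (0.0601). At the heart stage the same probe set differed by 0.88 (cotyledon minus root) and at the torpedo stage by 1.40 (apical minus basal). The tests of the globular difference against those differences gave limma adjusted p values of 0.922 for heart and 1 for torpedo.

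Without adjustment, limma gave p under 0.05 to 489 probe sets higher (2.15%) and 425 lower (1.87%) in the apical part, 914 in all (4.02%), where 1137.3 would be reached if no probe set differed. The next smallest adjusted p was 0.362. The 3 apical and 3 basal values did not overlap for 814 probe sets that were higher (3.58%) and 1161 that were lower (5.1%) in apical captures, 1975 together (8.68%). With 3 arrays a group, values can lie apart in this way without a difference between the parts, so a lack of overlap alone shows none. The median log2 difference of all probe sets was -0.06. Of the probe sets without overlap, 325 (1.43%) were higher and 256 (1.13%) lower by a log2 difference of 1 or more, a factor of 2, with a mean signal of 100 or more in the higher group. The genes described below come from these 581 probe sets or from gene lists, none of them passed the adjusted test, and they are described by their values.

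**Figure D2:**
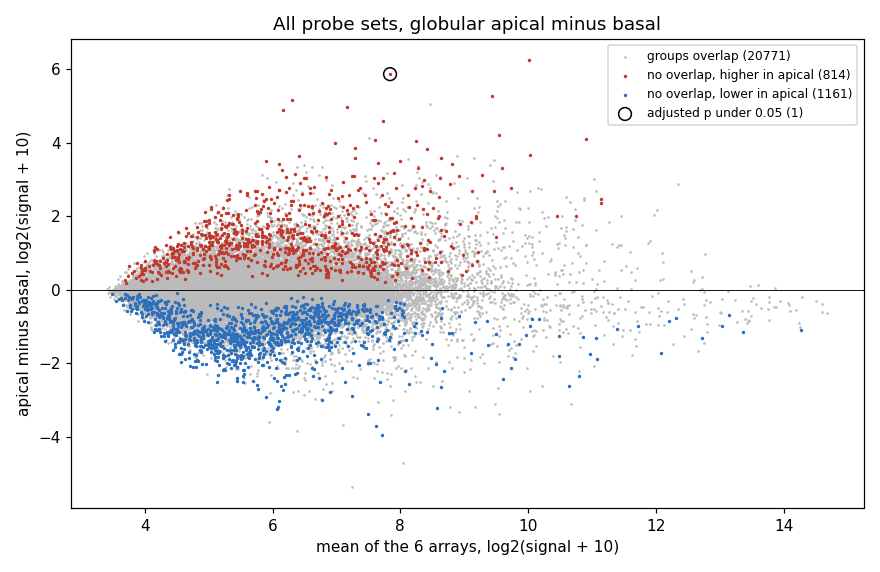
Apical minus basal difference of each probe set, log2(signal + 10), against its mean over the 6 globular arrays. Red points (814) and blue points (1161) are probe sets whose apical and basal values do not overlap, and the circle marks 263739_at, the probe set with an adjusted p under 0.05.

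Larger differences were counted more often on the apical side. Among the 325 probe sets higher in apical captures the median fold was 3.56 and the highest 76.3, and 144 reached 4-fold and 39 reached 8-fold. Among the 256 lower in apical captures the median fold was 2.77 and the highest 15.6, and 56 reached 4-fold and 7 reached 8-fold. Folds are on the log2(signal + 10) scale, so changes of dim probe sets come out too small. The highest of the 3 apical values lay on apical replicates 1, 2 and 3 in 108, 74 and 143 of the higher probe sets. The highest basal value lay on basal replicates 1, 2 and 3 in 70, 64 and 122 of the lower ones. In 53 of the higher probe sets the highest array was at least 3 times the next, on apical replicate 1 in 27, on 2 in 7 and on 3 in 19. In 60 of the lower ones it was so, on basal replicate 1 in 12, on 2 in 17 and on 3 in 31.

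By the rule for named genes, the 12 genes with the smallest p in each direction were taken from the 188 higher and 138 lower probe sets of this kind that carry exactly 1 gene. Their adjusted p values ran from 0.362 to 1 in limma. The leading gene on the apical side, AT4G28025, had 300.0, 834.7 and 465.7 in apical captures and 21.2, 21.3 and 22.0 in basal captures. Its basal values lay close together and its apical values were all more than 10 times as high. The log2 difference was 3.99 with a standard error of 0.54 (limma, adjusted p = 0.362, higher in 3 of 3). AT5G42220 was among the brightest of the set, with 1974.7, 4146.6 and 4073.0 in apical captures against 212.4, 102.8 and 200.6 in basal captures. This gave a log2 difference of 4.21 (adjusted p = 0.362). AT2G07170 had 873.4, 443.7 and 1291.3 in apical captures and 84.2, 24.1 and 23.1 in basal captures, a log2 difference of 4.09 (adjusted p = 0.516). AT2G17972 was even across replicates, with 464.7, 443.8 and 395.8 in apical captures and 29.3, 74.9 and 30.5 in basal captures, and differed by 3.11 (adjusted p = 0.698). The files give these loci only by code, and no role is stated for them.

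4 of the 12 apical-side genes carry a symbol. APG8H (AT3G15580), a ubiquitin-like protein of the ATG8 family that is anchored in autophagosome membranes, had 450.7, 307.6 and 3582.8 in apical captures and 44.5, 5.5 and 9.5 in basal captures. Apical replicate 3 stood well above the other arrays, and all apical values exceeded all basal ones, for a log2 difference of 4.99 (SE 0.94). CRK (AT4G01710), known as CROOKED, is a subunit of the Arp2/3 complex that nucleates branched actin filaments. It had 122.7, 85.4 and 181.7 in apical captures and 11.5, 20.8 and 3.6 in basal captures, which differ by 2.69 ± 0.62 (SE) in log2. MTP11 (AT2G39450), a manganese transporter of the secretory pathway, had 196.9, 311.6 and 809.5 in apical captures and 13.0, 86.6 and 44.5 in basal captures, which differ by 2.94 ± 0.72 (SE) in log2. SCPL27 (AT3G07990), a serine carboxypeptidase-like protein, had 229.5, 57.5 and 256.4 in apical captures and 9.5, 16.3 and 14.7 in basal captures, which differ by 2.80 ± 0.69 (SE) in log2. The other genes of the set, given by locus code, were AT1G22410 (3.18), AT1G33110 (2.50), AT2G34460 (2.41) and AT5G04160 (2.32), as log2 differences.

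On the basal side, AT5G27700 was the brightest of the 12 genes, with 619.8, 476.1 and 860.8 in apical captures and 3529.9, 5071.6 and 3396.3 in basal captures. The gap between the groups was wide on every array, and the log2 difference was -2.61 with a standard error of 0.62 (limma, adjusted p = 1, lower in 3 of 3 apical arrays). QPT (AT2G01350), the quinolinate phosphoribosyltransferase of NAD synthesis, had 13.4, 54.5 and 28.6 in apical captures and 961.6, 292.2 and 89.1 in basal captures. Its basal values spread more than 10-fold and the log2 difference was -2.99 (SE 0.84). AT5G19960 had 8.0, 10.5 and 19.4 in apical captures and 67.1, 142.2 and 191.7 in basal captures, a log2 difference of -2.59. AT5G26180 had similar values within each group, with 53.7, 43.7 and 36.3 in apical captures and 157.9, 214.6 and 159.0 in basal captures, a log2 difference of -1.78. The remaining 8 genes differed by -2.56 (AT2G19385), -2.48 (AT5G33300), -2.39 (AT2G15860), -2.13 (AT3G58660), -2.12 (AT1G04830), -1.95 (AT4G17940), -1.92 (AT2G20870) and -1.55 (AT5G67290) on the log2 scale.

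**Figure D3:**
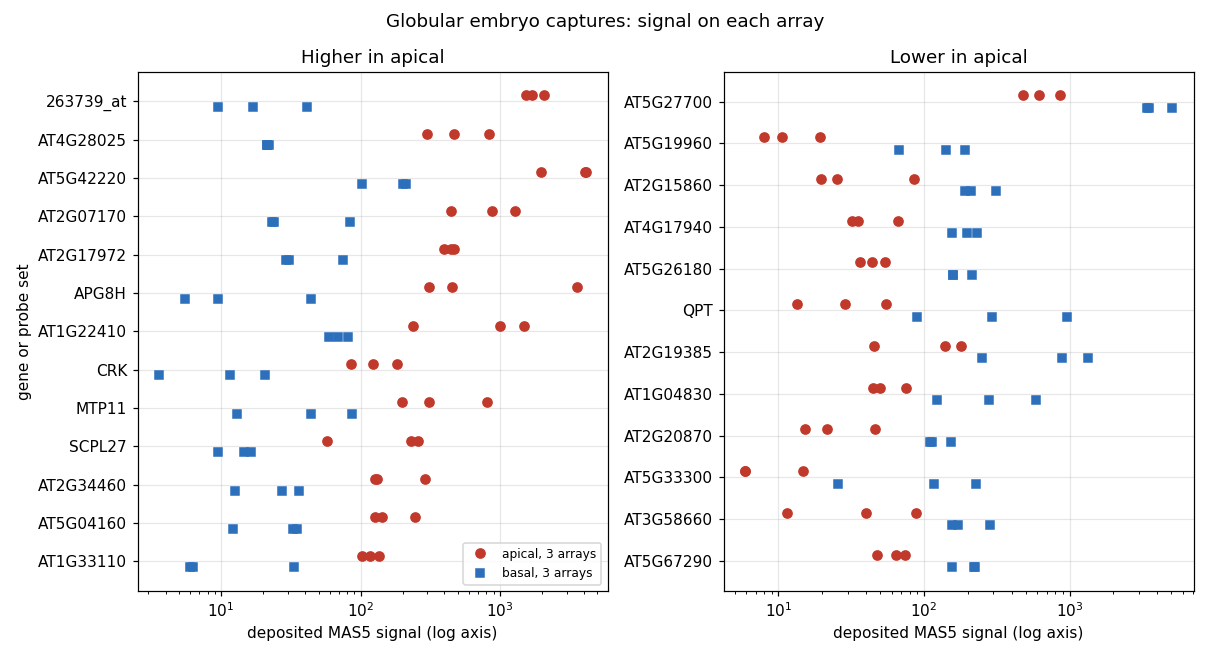
Deposited MAS5 signal (log axis) of 263739_at and the 12 named genes higher in apical captures (left panel) and the 12 lower in apical captures (right panel). Each row is a gene, red circles are the 3 apical arrays and blue squares the 3 basal arrays; by the rule that chose the genes, circles and squares do not overlap in any row.

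Of the 581 probe sets, 33 of the higher and 16 of the lower carry a gene symbol; most other single-gene probe sets are known here by locus code only. The symbol-carrying genes below were picked for that after their values were seen, and none passed the adjusted test. Those higher in apical captures included genes of secretion and of protein quality control in the endoplasmic reticulum (ER). ATRER1A (AT4G39220), a Golgi receptor that returns ER membrane proteins, had 3947.0, 819.2 and 515.7 in apical captures and 91.7, 123.2 and 302.5 in basal captures. CLUB (AT5G54440), a subunit of the TRAPPII tethering complex needed for cytokinesis, had 158.5, 238.2 and 1121.5 in apical captures and 35.6, 90.0 and 37.3 in basal captures. The first was highest on apical replicate 1 and the second on apical replicate 3. OS9 (AT5G35080), a lectin that delivers misfolded glycoproteins to ER degradation, had 45.8, 247.4 and 134.8 in apical captures and 13.3, 26.5 and 22.2 in basal captures. DER2.1 (AT4G21810), a derlin of the same pathway, had 140.4, 181.2 and 608.7 in apical captures and 105.6, 11.6 and 131.8 in basal captures, and its groups are barely apart.

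A list of 28 vesicle traffic and ER quality control genes, written after these values were seen, holds these genes and others of the same pathways. In it, 19 members were higher and 9 lower in apical captures, with a median log2 difference of 0.26 against -0.06 for all probe sets, and no member passed the adjusted test. The groups did not overlap for 6 members that were higher, 21.4% of the list against 3.58% of all probe sets, and for 1 that was lower, RAB6A (3.0, 5.1 and 4.5 in apical and 6.6, 10.2 and 5.4 in basal captures). Since the list was written with the values in view, this share supports nothing on its own. The other members without overlap were VPS20.1 (AT5G63880), part of the ESCRT-III complex that sorts cargo into multivesicular bodies, and SEC5B (AT1G21170), part of the exocyst that tethers vesicles to the plasma membrane. VPS20.1 had 140.7, 58.1 and 42.8 in apical captures and 6.9, 25.4 and 2.0 in basal captures. SEC5B had 63.4, 59.3 and 161.3 in apical captures and 10.7, 39.0 and 44.9 in basal captures. Members went the other way too: YKT61, a vesicle fusion SNARE, had 2.9, 22.4 and 5.6 in apical captures and 106.0, 67.9 and 12.0 in basal captures, with overlapping groups.

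Listed autophagy genes other than APG8H showed smaller differences with overlapping groups. The list of 10 genes, also written after the values were seen, holds members of the ATG8 family and ATG3 alone besides. It therefore speaks for that family and not for autophagy genes at large. Of its members 9 were higher in apical captures and the median log2 difference was 0.53. ATG8D, another ATG8 family member, had 196.2, 908.8 and 2526.2 in apical captures and 82.0, 624.1 and 181.6 in basal captures. ATG8F was dominated by a single array, with 68.9, 10479.0 and 71.5 in apical captures and 112.4, 827.0 and 163.6 in basal captures. ATG8G had 940.0, 1026.5 and 199.3 in apical and 1677.3, 661.4 and 204.4 in basal captures, a log2 difference of -0.08. Probe sets of this closely related family may share signal.

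Genes acting on RNA lay on both sides. NRPB12 (AT5G41010), a small subunit of nuclear RNA polymerases, had 1176.6, 735.9 and 2962.3 in apical captures and 154.8, 348.6 and 16.0 in basal captures. RBP45B (AT1G11650), an RNA-binding protein, had 866.6, 560.7 and 1278.6 in apical captures and 35.8, 373.9 and 14.9 in basal captures. Basal replicate 2 came closest to the apical arrays for both genes. NRPD7 (AT3G22900), a subunit of the plant-specific RNA polymerase that starts small RNA production, had 172.0, 80.8 and 97.8 in apical captures and 29.3, 54.3 and 4.2 in basal captures. A list of 12 RNA polymerase subunits was written after the values were seen, with NRPB12 and NRPD7 in it, so its share supports nothing on its own. Across these subunits, 8 were higher in apical captures and the median log2 difference was 0.41. NRPB12 and NRPD7 were the 2 higher without overlap (16.7%, against 3.58% of all probe sets). Basal replicate 3 was low for several of the listed subunits: NRPB6A, a subunit shared by the polymerases, had 744.8, 636.7 and 1744.3 in apical captures, against 3159.6, 1060.9 and 6.7 in basal captures. In the list of 13 splicing and RNA decay genes, 3 were higher without overlap and 3 lower without overlap (23.1% each, against 3.58% and 5.1% of all probe sets), and the median log2 difference was 0.03. This list too was written after the values were seen. All its members without overlap are among the genes picked for large differences, so these shares support nothing on their own. PRP39 (AT1G04080), a component of the U1 spliceosomal particle, had 313.6, 118.2 and 143.7 in apical captures and 115.6, 57.8 and 28.2 in basal captures. LSM1A (AT1G19120), a subunit of the ring that starts mRNA decapping, had 481.5, 375.9 and 649.2 in apical captures and 312.0, 282.2 and 124.3 in basal captures. On the lower side, FY (AT5G13480), an mRNA 3′ end processing factor known from flowering time control, had 75.5, 140.1 and 38.3 in apical captures and 153.6, 150.3 and 549.9 in basal captures. STIPL1 (AT1G17070), a spliceosome disassembly factor, had 64.2, 64.7 and 97.6 in apical captures and 933.8, 123.8 and 163.3 in basal captures, where basal replicate 1 is far above the rest. UBA1A (AT2G22090), an RNA-binding protein, had 155.3, 314.1 and 216.2 in apical captures and 766.5, 432.2 and 370.2 in basal captures.

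PRL (AT4G02060), the MCM7 subunit of the helicase that licenses DNA replication, had 265.9, 232.6 and 366.1 in apical captures and 86.0, 150.6 and 82.3 in basal captures, which differ by 1.38 ± 0.48 (SE) in log2. Of the 6 cell cycle genes measured out of 50 listed, 5 were higher in apical captures (median log2 difference 0.51). PRL alone was without overlap (16.7%, against 3.58% of all probe sets). The mitotic kinase AUR1 had 1265.1, 987.9 and 246.7 in apical captures and 530.7, 728.1 and 152.9 in basal captures, and AUR3 had 64.3, 128.2 and 133.7 in apical and 12.8, 157.7 and 49.4 in basal captures, both with overlapping groups. TUB9 (AT4G20890), a beta-tubulin, had 218.6, 204.7 and 308.9 in apical captures and 83.2, 153.9 and 81.4 in basal captures. With CRK it was among 10 cytoskeleton genes, a list written after the values were seen, of which 6 were higher and 4 lower in apical captures (median 0.03), with 2 higher without overlap (20.0%, against 3.58% of all probe sets). ARL (AT2G44080), an ARGOS-like promoter of cell expansion, had 306.0, 396.4 and 228.2 in apical captures and 132.8, 86.9 and 177.4 in basal captures. EIF4A-2 (AT1G54270), the RNA helicase of translation initiation, had 300.7, 445.4 and 417.0 in apical captures and 269.9, 99.2 and 91.5 in basal captures. HON4 (AT3G18035), a linker histone-like protein, had 65.2, 68.6 and 164.2 in apical captures and 12.9, 15.5 and 45.1 in basal captures, and 3 of the 5 histone genes measured were higher in apical captures.

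Wall and secreted proteins were split. TBL39 (AT2G42570) and TBL35 (AT5G01620) belong to a family that acetylates wall polysaccharides. TBL39 had 2175.3, 290.2 and 4889.3 in apical captures and 64.1, 163.1 and 192.3 in basal captures. TBL35 went the other way, with 85.8, 155.2 and 52.1 in apical captures and 275.2, 465.8 and 158.8 in basal captures. Among the 22 members of the family that are named by symbol here, 7 were higher and 15 lower in apical captures (median log2 difference -0.42). Without overlap were 1 higher (4.55%, against 3.58% of all probe sets) and 4 lower (18.2%, against 5.1%). The family was listed after the values were seen, with TBL39 and TBL35 already picked for large differences, so these shares support nothing on their own. EXPA20 (AT4G38210), an expansin that loosens walls, had 13.1, 25.0 and 16.6 in apical captures and 46.1, 601.1 and 170.7 in basal captures, with basal replicate 2 far above the others. Among 34 wall remodelling genes, 19 were higher and 15 lower (median 0.08), with 3 lower (8.82%, against 5.1% of all probe sets) and none higher without overlap. BGLU15 (AT2G44450), a beta-glucosidase, had 836.4, 267.9 and 775.3 in apical captures and 106.0, 238.7 and 97.2 in basal captures. The signal peptide gene RALFL22 had 199.5, 152.3 and 278.9 in apical captures and 99.6, 5.5 and 42.2 in basal captures.

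The remaining symbol-carrying genes belong to transport, metabolism and organelles. On the apical side, TMT2 (AT4G35300), a sugar transporter of the vacuole membrane, had 118.7, 271.4 and 139.0 in apical captures and 51.8, 63.0 and 20.5 in basal captures. HMT-1 (AT3G25900), a homocysteine methyltransferase, had 168.6, 146.2 and 296.0 in apical captures and 16.1, 34.1 and 87.7 in basal captures. PEX4 (AT5G25760), the ubiquitin-conjugating enzyme of peroxisome import, had 70.8, 121.1 and 243.9 in apical captures and 19.1, 49.5 and 18.9 in basal captures. The groups of each of these 3 genes were apart. The apical-side genes GRXC2 (a glutaredoxin, 1.97), AER (an alkenal reductase, 2.00), BRH1 (a RING-H2 protein, 2.48), LrgB (the plastid glycolate and glycerate transporter, 1.53), ARV2 (a sterol homeostasis protein, 1.58), MAP1D (an organellar methionine aminopeptidase, 1.64), SETH1 (glycosylphosphatidylinositol anchor synthesis, 1.35), INH3 (an inhibitor of protein phosphatase, 1.25), ALDH10A8 (an aldehyde dehydrogenase, 1.15) and TET4 (a tetraspanin, 1.07) are given by log2 difference alone. The gap is narrow in some: the lowest apical value of AER was 142.4 and the highest basal value 142.2, and for MAP1D they were 263.0 and 261.9. Of all 49 symbol-carrying genes, 13 had a gap between the groups under 0.1 in log2, and 25 moved by over 1.5 times in fold when some array was left out. The log2 difference then ranged from 1.42 to 2.61 for AER, from 1.17 to 2.52 for GRXC2 and from -3.43 to -0.68 for GFAT. On the basal side, CHC1 (AT5G14170), a subunit of SWI/SNF chromatin remodelling, had 25.4, 246.0 and 9.1 in apical captures and 757.6, 277.0 and 302.7 in basal captures, where apical replicate 2 reached nearly the basal level. TIL (AT5G58070), a temperature-induced lipocalin, had 21.0, 104.6 and 46.4 in apical captures and 1681.1, 170.4 and 114.3 in basal captures. GFAT (AT3G24090), the first enzyme of hexosamine synthesis, had 9.3, 12.4 and 7.1 in apical captures and 21.3, 21.0 and 1395.1 in basal captures, and its mean rests on basal replicate 3. The other basal-side genes, by log2 difference, were CLPP4 (a plastid protease subunit, -1.36), IAA30 (an Aux/IAA repressor, -1.31), LHCB4.3 (a light-harvesting protein, -1.26), GSTU27 (a glutathione transferase, -1.15) and PS2 (a presenilin, -1.14), beside AGL80 and MPC above.

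Of the measured genes known to pattern the embryo axis, IAA30 alone was without overlap between the groups. Over all probe sets 3.58% were higher and 5.1% lower without overlap, so lists this small would hold few such genes in any case. Of 40 apical and shoot patterning genes 8 were measured, and none was without overlap; 5 were higher and 3 lower in apical captures, with a median log2 difference of 0.33. LAS, a GRAS factor of axillary meristems, had 146.5, 246.3 and 229.8 in apical captures and 26.4, 136.5 and 241.4 in basal captures, with basal replicate 3 at the apical level. YAB3, which promotes lateral organ identity, had 20.4, 127.3 and 98.6 in apical captures and 101.4, 15.7 and 10.1 in basal captures, and NGA1, a factor of organ shape, had 44.5, 42.4 and 61.5 in apical and 59.6, 13.1 and 19.3 in basal captures. All 3 had overlapping groups. CLV3, the shoot stem cell signal, had 76.8, 52.4 and 142.0 in apical captures and 82.5, 31.3 and 81.1 in basal captures. Of 33 basal and root pole genes 8 were measured, 3 higher and 5 lower in apical captures (median -0.63). LHW, a vascular factor, had 110.3, 87.3 and 12.3 in apical captures and 277.9, 120.5 and 79.1 in basal captures, and CR4, a receptor kinase of the epidermis and root tip, had 21.9, 16.4 and 11.4 in apical and 241.7, 16.7 and 51.1 in basal captures, both with overlapping groups. IAA30 was lower in apical captures without overlap, at 85.7, 89.8 and 48.8 in apical against 97.1, 108.8 and 663.0 in basal captures, and its height rests on basal replicate 3.

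Hormone genes lay on both sides. Of 53 auxin genes 12 were measured, 4 higher and 8 lower in apical captures (median -0.28). IAA30 alone was without overlap (8.33%, against 5.1% of all probe sets). IAA20, a related Aux/IAA protein, had 354.5, 85.7 and 16.8 in apical captures and 25.4, 24.6 and 37.1 in basal captures, and the auxin-conjugating enzyme UGT84B1 had 4.9, 16.1 and 12.8 in apical and 8.4, 390.2 and 8.9 in basal captures. The single arrays at 354.5 and 390.2 set these values. The auxin synthesis gene YUC4 had 198.8, 477.9 and 72.9 in apical captures and 800.0, 58.5 and 192.3 in basal captures. The cytokinin response regulators ARR15 (15.1, 54.1 and 56.4 in apical against 15.3, 108.9 and 24.9 in basal captures) and RR16 (13.9, 31.2 and 68.3 in apical against 23.9, 5.7 and 67.0 in basal captures) overlapped, and so did the gibberellin receptors GID1A (0.18), GID1B (-0.80) and GID1C (0.48) and the ethylene factor EIN3 (0.51), given as log2 differences.

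Other lists are given by their counts, with 3.58% of all probe sets higher and 5.1% lower without overlap. Gene families listed after the values were seen had, higher and lower without overlap, 4 and 1 of 47 UGT glycosyltransferases (median -0.16), 2 and 0 of 29 carboxypeptidase-like genes (-0.15) and 0 and 2 of 23 cytochromes P450 (-0.07). The counts were 1 and 1 of 20 beta-glucosidases (0.02), 1 and 1 of 15 tetraspanins (-0.25), 1 and 0 of 14 SWEET sugar transporters (-0.18) and 1 and 1 of 11 RALF-like peptides (0.30). Of 10 nuclear photosynthesis genes, 5 were higher and 5 lower (median -0.08): LPA2, an assembly factor of photosystem II, had 150.3, 226.0 and 207.3 in apical captures and 128.9, 130.2 and 149.0 in basal captures, and LHCB4.3 and LHCB4.1, which are antenna proteins, went opposite ways at -1.26 and 1.44. LHCB4.1 was dim and its groups overlapped, at 61.1, 63.2 and 19.5 in apical and 6.4, 22.0 and 4.6 in basal captures. Among 69 plastid-encoded genes, 34 were higher and 35 lower in apical captures, with 1 each way without overlap (1.45%). The list of peroxidases and glutathione transferases held 12 measured genes, all of them glutathione transferases. Of these 9 were lower (median -0.38), with 1 without overlap (8.33%, against 5.1% of all probe sets), and GSTU27, GSTU15 (-0.70) and GSTU25 (-0.65) had the smallest p. Of 13 ubiquitin pathway genes, 8 were higher (median 0.18): UBC19 had 713.2, 293.7 and 542.0 in apical captures and 4.8, 868.9 and 9.3 in basal captures, where basal replicate 2 was the highest of all 6 arrays, and UBC22 differed by 1.03. The chaperonin genes Cpn60beta2 (-1.81), Cpn60beta3 (-2.75) and Cpn60beta4 (-0.81) were lower in apical captures with overlapping groups. The chromatin and small RNA list, 3 of 40 measured, held AGO7 (an argonaute, 3.14), DME (a DNA demethylase, 0.71) and SE (a microRNA processing factor, -1.25), and the centromeric histone HTR12 differed by -1.10; all 4 had overlapping groups. The wall genes XTH18 and EXPA18 differed by 1.63 and -1.25, the seed filling genes OLEO3 and AT3G15670 by 0.07 and 0.09, and the endosperm gene AT4G11940 by -0.82. Of the epidermis list, 4 of 24 were measured, but FDH carries the locus AT5G14780 of a formate dehydrogenase and LCR the locus AT1G27340 of an F-box protein rather than the epidermal genes of those names, so only CR4 and GSO1 (-0.22) bear on it; FDH and LCR differed by -0.36 and -0.11. No member of any of these lists passed the adjusted test.

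**Figure D4:**
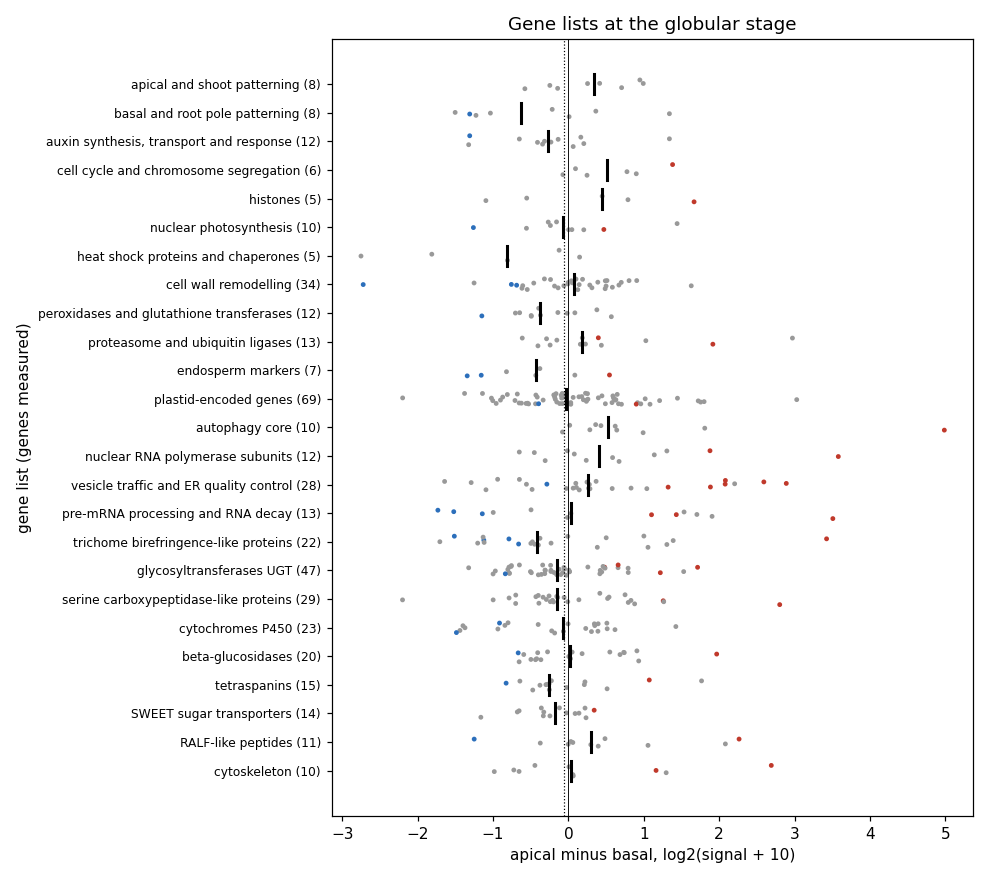
Apical minus basal difference, log2(signal + 10), of each measured gene, by list, with the number of genes measured in brackets; red and blue points are genes without overlap between the groups (higher and lower in apical), grey points overlap. Lists with at least 5 genes measured are shown. Black bars are list medians, from -0.81 for heat shock proteins and chaperones to 0.53 for autophagy, and the dotted line is the median of all probe sets, -0.06.

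The same genes were followed to the later stages, whose arrays share no sample with the globular comparison. Of the 325 probe sets higher in apical captures, 171 (52.6%) were higher in the heart cotyledon than in the heart root, where 66.7% of all probe sets were, and 210 (64.6%) were higher in the torpedo apical than in the torpedo basal part, where 40.8% of all probe sets were. Of the 256 lower in apical captures, 99 (38.7%) were lower in the heart cotyledon (33.3% of all) and 130 (50.8%) were lower in the torpedo apical part (59.2% of all). The shares of all probe sets include dim ones, which the choice of the 325 and 256 left out. Shares at matched signal were not computed, so the part of signal level in these contrasts was not tested. In the same direction and without overlap were 10 of the 325 at the heart stage (3.08%, against 5.8% of all probe sets) and 26 at the torpedo stage (8.0%, against 4.65%). Of the 256, 6 were so at the heart stage (2.34%, against 1.85%) and 14 at the torpedo stage (5.47%, against 6.93%). Of the 325, 2 were higher without overlap at all 3 stages, and both have no gene name here; none of the 256 was lower so. Probe set 253749_at had 228.5, 384.0 and 249.1 in apical and 80.0, 194.4 and 131.7 in basal captures at the globular stage, and 258369_at had 74.7, 96.0 and 130.1 in apical and 7.3, 19.1 and 64.3 in basal captures. Over all 22746 probe sets, 6 were without overlap in 1 direction at all 3 stages, all of them higher, and 3 of these carry 1 gene, AT1G32220, AT4G19880 and AT2G24300 (named after their values were seen).

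Among the 12 apical-side named genes, 10 kept their sign at the torpedo stage, 4 at the heart stage and 3 at both. AT4G28025 differed by 1.36 at the heart stage and 1.79 at the torpedo stage, without overlap at the torpedo stage. APG8H differed by -2.63 at the heart stage and 0.62 at the torpedo stage, and SCPL27 by -2.75 at the heart stage and -0.40 at the torpedo stage. Among the 12 basal-side named genes, 6 kept their sign at the torpedo stage, 3 at the heart stage and 1 at both. Genes named by symbol that were without overlap in the same direction at 1 later stage were MAP1D (1.56) and SETH1 (0.79) at the torpedo stage and PS2 (-1.17) at the heart stage, as log2 differences. At the other later stage, SETH1 (-0.70, heart) and PS2 (1.22, torpedo) had the opposite sign, and MAP1D differed by 0.04 (heart). Tests of the globular difference against the later ones, fitted on 18 arrays, called 0 of 22746 probe sets for the heart stage (0.0%) and 0 for the torpedo stage, with smallest limma adjusted p values of 0.754 and 0.0512. Without adjustment, 1205 and 823 probe sets had a p under 0.05 in these tests, where 1137.3 would be reached if no probe set differed.

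**Figure D5:**
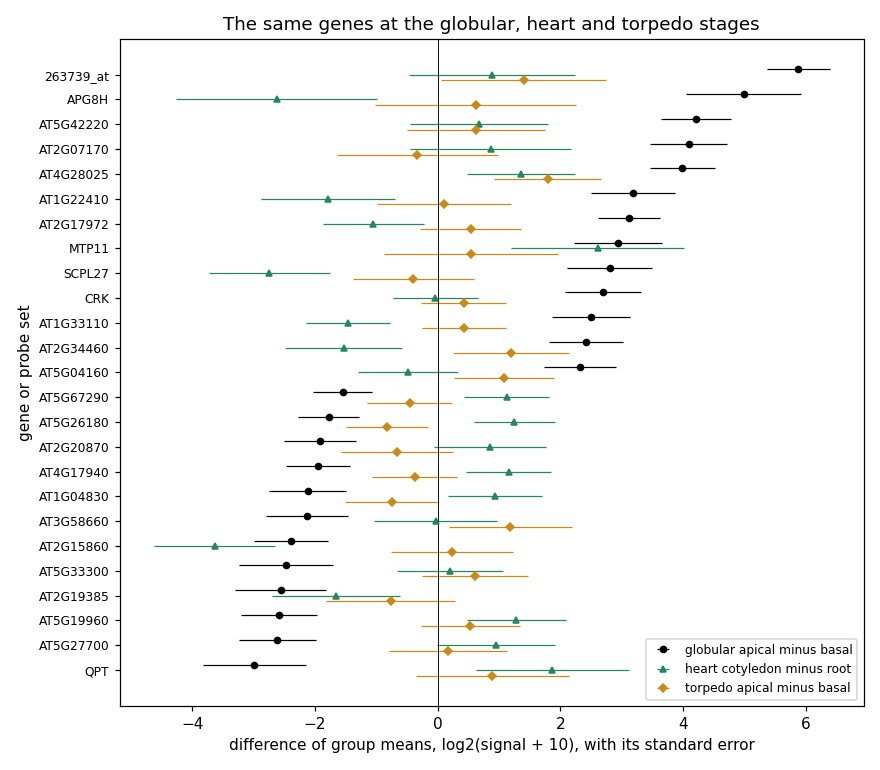
Differences of group means on log2(signal + 10) with their standard errors, for 263739_at and the 24 named genes, at the globular (circles, apical minus basal), heart (triangles, cotyledon minus root) and torpedo (diamonds, apical minus basal) stages. Globular differences lie far from 0 by the choice of the genes, and most heart and torpedo differences lie closer to it.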

How the data were processed

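For each of 27 ATH1 arrays the authors deposited linear probe set intensities. The submitters' processing notes name MAS5 as the tool, without a version or settings. A mean trimmed by 2% at each end was 100 to 100.02 on every array, so no further scaling was applied. Probe-level files were not analysed here, so background correction could not be varied. Groups came from the titles; 2 torpedo arrays with contradicting labels stayed out.

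Of 22810 probe sets, 64 controls were left out and 22746 tested without a filter. log2(intensity + 10) of the 6 globular arrays was compared by limma 3.58.1 (R 4.3.3) with lmFit and trended eBayes, 2-sided, with Benjamini-Hochberg adjustment and a threshold of 0.05. Differences between stages came from a fit of 18 arrays, as did the standard errors of the later stages.

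A platform table gave 13513 probe sets 1 gene, 503 several and 8730 none; 13436 matched RefSeq gene names of TAIR10.1, and 11933 are named by locus code. No coordinates are printed, because no build is named for the values. Named genes were all single-gene calls; the 12 a direction with the smallest p among single-gene probe sets without overlap, a log2 difference of 1 and a mean of 100; and of each list all members up to 4, otherwise the 3 with the smallest p and up to 6 without overlap. Lists and members were chosen with earlier results of these data known, and the lists of autophagy, RNA polymerase, vesicle traffic, RNA processing, cytoskeleton and plastid-encoded genes and of gene families were added after values were seen. A family among these is not reported here. Patterns for cytosolic ribosomal and lipid transfer proteins matched no named probe set. Alternatives varied the pseudocount, filter, scaling, spread model, arrays in the fit and each replicate.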

Additional observations from a re-analysis of the deposited data

Results flagged for a closer look

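The genes below had globular and torpedo captures that differed without overlap in opposite directions, given as log2 differences of apical minus basal, with the adjusted p of the test between the stages from the limma fit of 18 arrays. TET4, a tetraspanin, differed by 1.07 at the globular stage and -1.20 at the torpedo stage (adjusted p = 1). AGL80 differed by -1.34 at the globular and 1.58 at the torpedo stage (adjusted p = 1). TBL35 differed by -1.51 at the globular and 1.80 at the torpedo stage (adjusted p = 0.988). GFAT differed by -2.51 at the globular and 1.19 at the torpedo stage (adjusted p = 1), and its globular value rests on basal replicate 3. None of these tests passed the threshold, and these 4 were found by looking through the named genes. Of the 325 probe sets higher in globular apical captures, 12 were lower without overlap at the torpedo stage, where 6.93% of all probe sets were. Of the 256 lower ones, 10 were higher without overlap at that stage, where 4.65% of all probe sets were. Such a reversal is therefore not particular to these genes.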

How the results depend on the processing

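The number of arrays, 3 a group, limits the precision. The number of globular calls, 1 in the fit as reported, was 0 with a pseudocount of 1, without an intensity trend and with all 25 arrays, and 0 to 1 when a replicate was left out; without basal replicate 2 the call was another probe set, 255136_s_at, which has no gene name here. The number of probe sets whose globular difference was called against the torpedo difference, 0 as reported, was 3 with a pseudocount of 50, 2 with median centring, 2 with quantile normalization, 19 with array weights, 1 with 25 arrays and 0 to 1 with a replicate left out. Probe sets without overlap numbered 1517 to 2229 higher and 1805 to 3379 lower with a replicate left out, since fewer arrays overlap less often, and 749 lower with a filter of 50 on at least 2 arrays, which tests fewer probe sets. All 581 probe sets with large differences kept their sign under each setting that measured them, and the filter removed 14 of them. They were chosen for groups without overlap, which fixes the sign in most settings, so the kept sign is no evidence of robustness. A log2 difference of 1 or more remained in 394 of them with a pseudocount of 50. Without basal replicate 3 it remained in 492. Of the named genes, those that changed sign in some setting were small or single-array differences: ARR15 was -0.036 with a pseudocount of 50 and -0.012 with quantile normalization. With a replicate left out, log2 differences ranged from -2.07 to 0.15 for UGT84B1, -0.69 to 0.36 for ALC, -0.38 to 0.41 for OLEO3, -0.18 to 0.38 for DFR, -0.24 to 1.41 for DME, -1.06 to 0.51 for GSO1, -0.069 to 0.19 for AT3G15670, -0.14 to 0.47 for GID1A, -0.67 to 0.38 for CHI, -0.44 to 0.68 for ARR15, -0.73 to 0.37 for LCR and -0.26 to 0.88 for RR16; the cause was not tested.

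Deviations from the group means correlated at -0.085, -0.071 and 0.056 for same-numbered apical and basal arrays. For arrays with different numbers they correlated at -0.072 to 0.148. With 3 arrays a group this cannot show whether same-numbered arrays belong together, and the main fit did not pair them. With the replicate block the number of globular calls was 0, and the adjusted p of 263739_at was 0.186.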
